A study of Homo sapiens with 5 samples.

Results

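The extracellular matrix genes described here are 10 rows of a count table of HEK293 cells. They were picked by symbol from a fixed list of matrix genes that this line may express, chosen with earlier results of these data known. They are COL4A1, COL4A2, LAMB1, LAMC1, NID1 and AGRN, which encode components of the basement membrane, and COL5A1, COL6A1, FN1 and SPARC, which encode proteins of the wider matrix. All 10 were found among the 24497 gene rows of the table. HEK293 is an established cell line, made from human embryonic kidney cells by transformation with adenoviral DNA. The cells were grown in DMEM with glutamine and 10% fetal calf serum. RNA was primed with oligo-dT and the 5' ends of transcripts were selected for sequencing, each library carrying the product of 100 cells out of a lysate of 1000. The 5 libraries form 2 groups of the same untreated line, batch B with 3 libraries and batch A with 2, and batch is the only difference that the labels name. Libraries are called by the number that ends their column, 1, 2 and 3 in batch B and 2 and 3 in batch A, which in batch A are not the replicate numbers of the labels. The labels do not say whether libraries came from separate cultures or lysates, so the p-values rest on a spread among libraries that may be technical in origin.

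Basement membranes are sheets of matrix on which epithelial, endothelial and muscle cells rest. Laminin heterotrimers of an alpha, a beta and a gamma chain polymerise at the cell surface, type IV collagen forms a second network, and nidogen and perlecan bridge the pair. In the kidney the membrane between the glomerular capillary and the podocyte is part of the filtration barrier. Type IV collagen of the most widespread kind holds more alpha1 (COL4A1) than alpha2 (COL4A2) chains. COL6A1 is a chain of the microfibrillar collagen VI, COL5A1 a chain of collagen V, which joins fibrils of type I collagen, and FN1 encodes fibronectin, the ligand of several integrins. SPARC is a secreted glycoprotein that binds collagen, and agrin (AGRN) is a heparan sulfate proteoglycan known for clustering acetylcholine receptors at the neuromuscular junction.

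Because reads start at the 5' ends of transcripts, promoters are shown for some members. These are the pair of type IV collagen genes, the laminin chains LAMC1 and LAMB1, SPARC and FN1. COL5A1 and NID1 were matched but are not shown, and COL6A1 and AGRN had no promoter sequence under their symbol. The sequences are from RefSeq on GRCh38.p14 and run 5' to 3' on the strand of the gene, 250 bases before to 50 after the start of transcription. Capitals mark 5 short motifs searched on both strands, so that a site on the other strand appears as its complement. They are the GC box, spelled GGGCGG and bound by the Sp1 family, and the CCAAT box, spelled CCAAT and bound by NF-Y. The others are the TATA box, spelled TATAAA, a core of the cAMP response element, spelled TGACG, and the AP-1 site, spelled TGANTCA. Sites of the GC box may overlap each other. The windows are chr13:110307034-110307333, plus strand, for COL4A2; chr1:183023170-183023469, plus strand, for LAMC1; chr7:108003112-108003411, minus strand, for LAMB1; chr5:151686866-151687165, minus strand, for SPARC; and chr2:215436019-215436318, minus strand, for FN1.
COL4A2: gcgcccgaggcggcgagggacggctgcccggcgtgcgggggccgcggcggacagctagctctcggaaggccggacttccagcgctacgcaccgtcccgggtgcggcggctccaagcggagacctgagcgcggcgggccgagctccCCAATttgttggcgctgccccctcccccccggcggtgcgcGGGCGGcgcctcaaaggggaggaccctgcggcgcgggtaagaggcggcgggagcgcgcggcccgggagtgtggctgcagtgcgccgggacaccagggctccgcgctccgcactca
LAMC1: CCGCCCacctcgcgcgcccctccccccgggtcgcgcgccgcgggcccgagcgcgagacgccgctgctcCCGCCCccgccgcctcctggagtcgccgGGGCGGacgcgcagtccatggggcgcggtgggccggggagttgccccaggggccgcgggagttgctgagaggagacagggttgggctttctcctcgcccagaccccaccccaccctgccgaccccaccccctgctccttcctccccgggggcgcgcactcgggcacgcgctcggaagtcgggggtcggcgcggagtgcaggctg
LAMB1: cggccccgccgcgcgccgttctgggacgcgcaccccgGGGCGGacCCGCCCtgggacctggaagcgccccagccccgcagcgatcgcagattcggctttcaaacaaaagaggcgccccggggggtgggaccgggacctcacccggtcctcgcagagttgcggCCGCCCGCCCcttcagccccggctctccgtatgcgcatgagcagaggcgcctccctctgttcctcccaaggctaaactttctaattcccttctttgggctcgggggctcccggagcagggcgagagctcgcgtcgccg
SPARC: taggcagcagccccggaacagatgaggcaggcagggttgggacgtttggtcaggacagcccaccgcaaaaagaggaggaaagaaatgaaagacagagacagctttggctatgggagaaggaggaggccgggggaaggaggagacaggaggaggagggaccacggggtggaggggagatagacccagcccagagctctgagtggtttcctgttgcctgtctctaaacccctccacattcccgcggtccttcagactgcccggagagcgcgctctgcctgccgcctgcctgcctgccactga
FN1: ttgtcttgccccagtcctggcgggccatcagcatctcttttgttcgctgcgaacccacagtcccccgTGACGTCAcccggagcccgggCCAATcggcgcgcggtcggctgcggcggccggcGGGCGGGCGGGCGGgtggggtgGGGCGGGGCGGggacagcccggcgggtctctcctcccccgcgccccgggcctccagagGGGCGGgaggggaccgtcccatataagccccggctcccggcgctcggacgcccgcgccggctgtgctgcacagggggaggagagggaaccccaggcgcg

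The COL4A2 window also holds the start of COL4A1, which lies 127 bases before that of COL4A2 and is transcribed the other way. The windows of both genes share 226 bases. Of the 27303 genes with a promoter sequence, 12.6% had the start of a gene on the other strand, pointing away, within 300 bases, while for the other 6 members matched the nearest such start was 17639 bases away or farther. The stretch between both collagen starts held a CCAAT box that begins 105 bases before the start of COL4A2 and a GC box 65 bases before it. A GC box was present in 7 of the 8 members matched in the table, all but SPARC, against 44.6% of all promoters. The GC box between the collagen starts lies in the windows of both COL4A1 and COL4A2 and was counted for each. A CCAAT box was present in 4 of 8, namely COL4A1, COL4A2, NID1 and FN1, against 35.7% of all promoters, and COL4A1 and COL4A2 share theirs. TGACG was present in FN1 alone, on both strands with the matches overlapping, against 25.0% of promoters, and neither TATAAA (12.0% of promoters) nor TGANTCA (7.76%) was found in any of the 8. The GC content of the window was 79.0% in LAMC1, 77.7% in COL4A2 and 61.3% in SPARC, with a median of 58.3% over all promoters. Such matches describe letters in a window and do not show binding. Only the exact spellings were counted, so a near match such as tataag in the FN1 window is not among them.

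Gene counts came to 373687, 575472 and 685181 in batch B libraries 1, 2 and 3 and to 686883 and 803168 in batch A libraries 2 and 3. Levels are given in CPM, the count of a gene divided by all gene counts of its library and multiplied by 1000000. The limit of detection was set at 3 counts, which stand for 8.03 CPM in batch B library 1 and 3.74 CPM in batch A library 3. Of 11 markers fixed for HEK293, 10 had a count in every library, among them the intermediate filament genes VIM, at 481 CPM on average, KRT8 and KRT18, the neurofilament gene NEFL and the N-cadherin gene CDH2. PAX2, a kidney regulator, had 1 count in each of 4 libraries and 4 in the other. Of 10 fibroblast markers 8 were analysed, and COL1A2, PDGFRB and THY1 had 0 counts in all 5 libraries. Their sum, mostly COL1A1, ran over 13.4 to 27.7 CPM in batch B and 5.82 to 12.5 CPM in batch A. The endothelial markers VWF and CLDN5 had 0 counts, and the other 5 of that list were not analysed here. These are bulk libraries, in which fewer cells expressing a gene and less RNA per cell cannot be told apart.

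All 10 matrix genes had a count in every library. Together they had 1378 counts, and took 0.0458% ± 0.00415 of gene counts in batch B (SD, n = 3) and 0.0416% ± 0.000624 in batch A (SD, n = 2). The lowest value was 2 counts, of AGRN in batch B library 1, and the highest 94 counts, of LAMC1 in batch A library 3. Mean levels over the 5 libraries ran from 119 CPM for LAMC1, at the 91.3 percentile of the 20087 genes with a count, to 11.0 CPM for FN1, at the 52.7 percentile. The order was LAMC1, SPARC, COL4A2, COL6A1, NID1, COL4A1, LAMB1, COL5A1, AGRN and FN1. Neighbours were taken to differ only where both the Poisson intervals of their pooled counts and their ranges over libraries were apart. By that measure LAMC1 stood above SPARC and NID1 above COL4A1, and the other 7 neighbouring pairs did not differ beyond their spread. Over all 45 pairs of members 31 did differ. Compared within each library, 4 of the 9 neighbouring pairs and 35 of the 45 pairs had the same gene higher in 5 of 5 libraries, COL4A2 over COL6A1 and LAMB1 over COL5A1 being the neighbours that this adds. The longest protein-coding transcripts in GENCODE 29 run from 3701 nucleotides for SPARC to 8905 for FN1, the second and the last in the order. Across the 10 genes Spearman's rho of mean level and transcript length was -0.52, a description of genes that share the same 5 libraries.

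**Figure D1:**
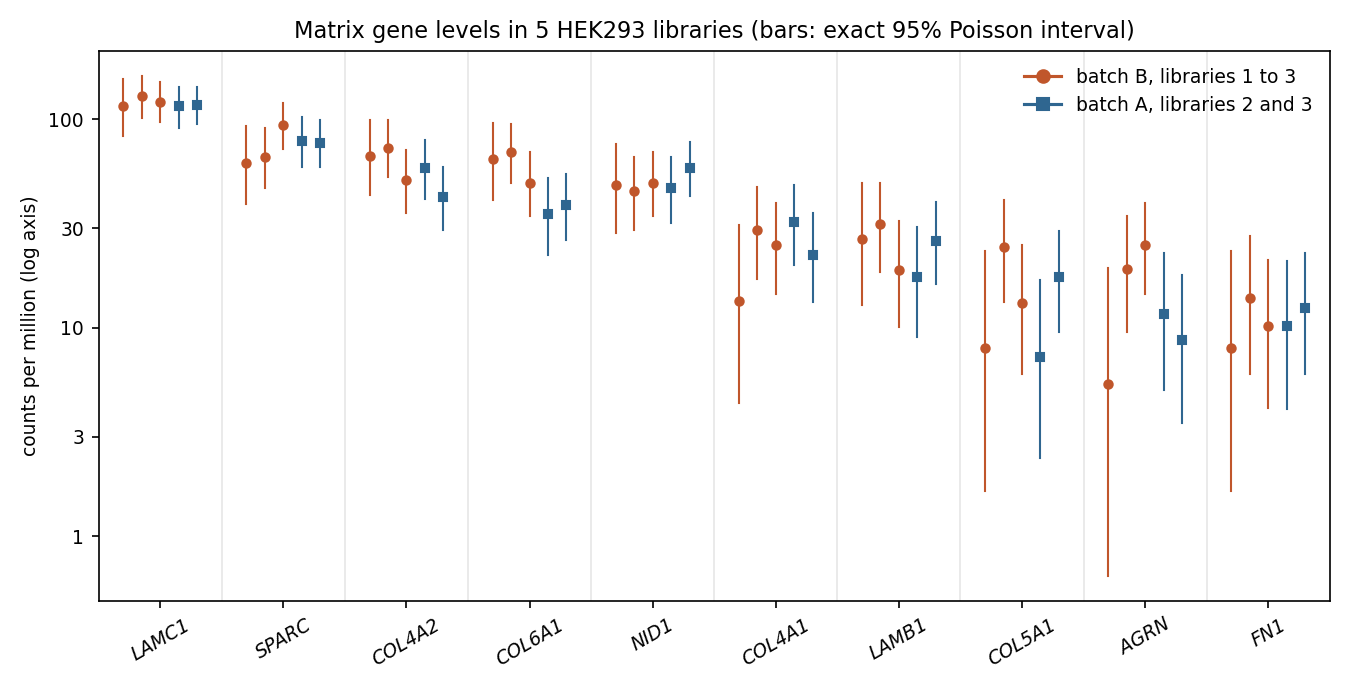
Levels of the 10 matrix genes in CPM (log axis), ordered by their mean over 5 libraries; points are libraries of batch B (circles) and batch A (squares), and bars are exact 95% Poisson intervals, which cover counting error only. LAMC1 is highest in all 5 libraries. The libraries of the batches lie apart for COL6A1 alone of the 10, and for 31.3% of all tested genes.

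The laminin chain LAMC1, the gamma1 chain found in most laminins, had 43, 74 and 83 counts in batch B and 79 and 94 in batch A, that is 115, 129 and 121 CPM in batch B and 115 and 117 CPM in batch A. It was the highest member in 5 of 5 libraries and the steadiest, its highest value being 1.12 times its lowest. It also had the most counts, and so the smallest relative counting error. Of the 50 values of members by library, 2 had a 95% Poisson interval that excluded the pooled level of the gene. These were COL6A1 in batch B library 2 and AGRN in batch B library 3. LAMB1, the beta1 chain, had 10, 18 and 13 counts in batch B and 12 and 21 in batch A, or 26.8, 31.3 and 19.0 CPM in batch B and 17.5 and 26.1 CPM in batch A. Its libraries overlapped between the batches. LAMB1 took 16.6% of the counts of the LAMB1 and LAMC1 pair over all libraries (exact 95% binomial interval 13.2 to 20.3). That share was 18.9%, 19.6% and 13.5% in batch B and 13.2% and 18.3% in batch A, and its interval lay below 50% in every library. Per kilobase of the longest coding transcript in GENCODE 29, LAMC1 averaged 15.1 CPM and LAMB1 4.18 CPM.

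The partner chains, chosen after their values were seen, place both genes within their families. LAMC1 had 373 counts over all libraries, against 5 for the gamma chain LAMC3. LAMB1 held 54.0% of the counts of the 3 beta chains, with LAMB2 at 20.9 CPM and LAMB3 at 0 counts, which allows up to 0.960 CPM over the 5 libraries pooled. Among alpha chains LAMA5 averaged 22.0 CPM, LAMA3 20.8 CPM, LAMA4 14.9 CPM and LAMA1 13.2 CPM, while LAMA2 had 1 count. Summed by class, alpha chains came to 73.8 ± 18.7 CPM in batch B and 67.4 ± 5.54 in batch A, and beta chains to 48.9 ± 13.0 CPM in batch B and 39.3 ± 6.11 in batch A (SD, n = 3 and 2). In both batch means LAMC1 alone, at 122 ± 6.77 CPM in batch B and 116 ± 1.43 in batch A (SD, n = 3 and 2), was above the alpha sum and the alpha sum above the beta sum. None of these sums is divided by length, since a selected 5' end stands for a transcript whatever its length, but transcripts of up to 11426 nucleotides (LAMA5) must be copied whole to give one, and how far that was achieved was not tested.

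**Figure D2:**
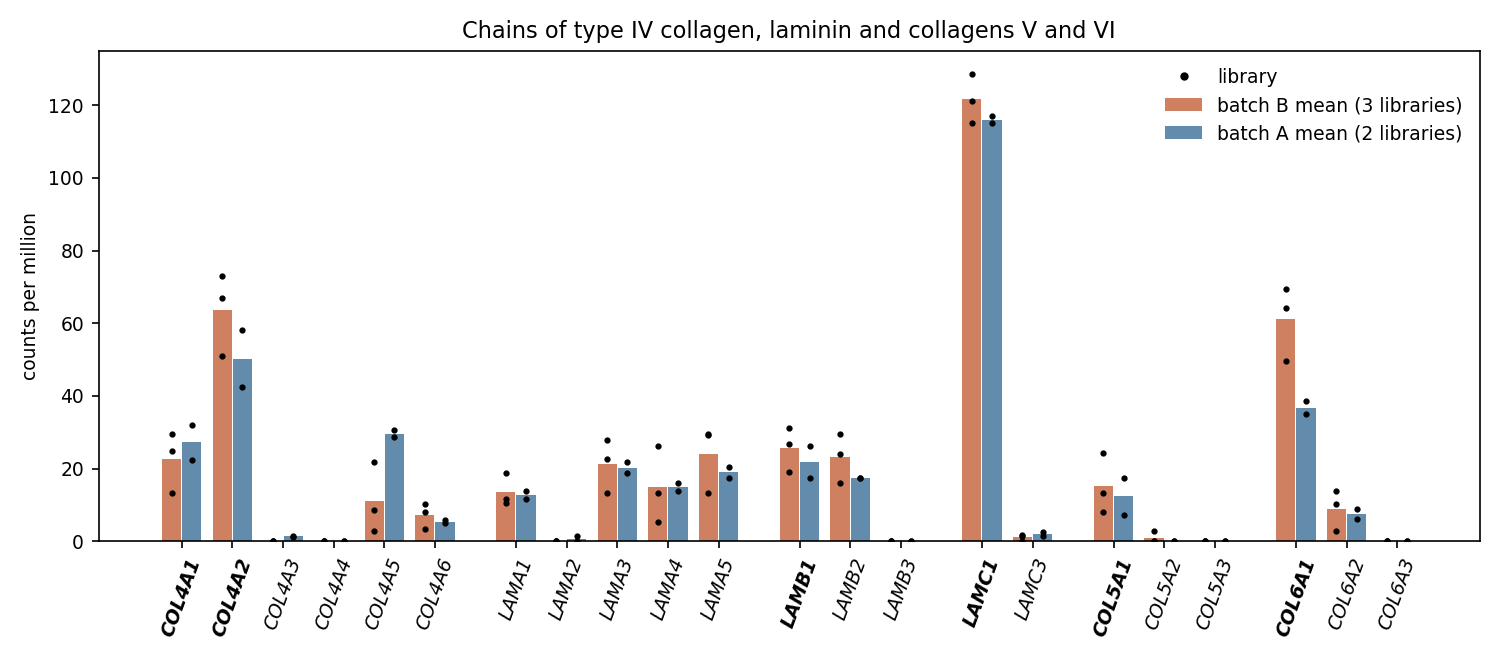
Mean CPM of chains of type IV collagen, laminin and collagens V and VI; bars are means of batch B (left, 3 libraries) and batch A (right, 2 libraries), points are libraries, and members described here are in bold. LAMC1 is above every other chain shown, and COL4A4, LAMB3, COL5A3 and COL6A3 have 0 counts in all libraries.

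COL4A2 had 25, 42 and 35 counts in batch B and 40 and 34 in batch A, or 66.9, 73.0 and 51.1 CPM in batch B and 58.2 and 42.3 CPM in batch A. COL4A1, its divergent neighbour, had 5, 17 and 17 counts in batch B and 22 and 18 in batch A, or 13.4, 29.5 and 24.8 CPM in batch B and 32.0 and 22.4 CPM in batch A. COL4A2 was above COL4A1 in 5 of 5 libraries, and for each gene the batches overlapped. COL4A1 took 31.0% of the counts of the pair over all libraries (exact 95% binomial interval 25.4 to 37.0). The share was 16.7% (5.64 to 34.7), 28.8% (17.8 to 42.1) and 32.7% (20.3 to 47.1) in batch B libraries 1, 2 and 3, and 35.5% (23.7 to 48.7) and 34.6% (22.0 to 49.1) in batch A libraries 2 and 3. Every interval lay below 50%, and the intervals of all 5 libraries overlapped. The longest coding transcripts of both genes are of nearly equal length, 6616 nucleotides for COL4A1 and 6494 for COL4A2, so the order is the same per kilobase, at 3.69 and 8.98 CPM.

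**Figure D3:**
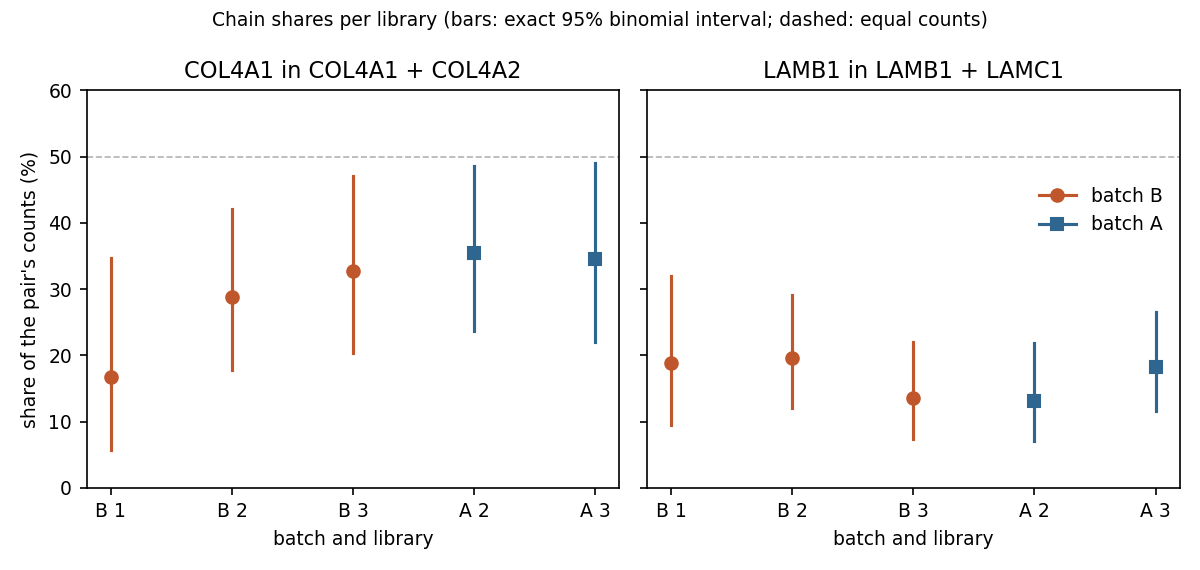
COL4A1 as a share of COL4A1 and COL4A2 counts (left) and LAMB1 as a share of LAMB1 and LAMC1 counts (right), in percent, for each library of batch B (circles) and batch A (squares); bars are exact 95% binomial intervals and the dashed line marks equal counts. All intervals lie below 50%, with COL4A1 at 16.7% to 35.5% and LAMB1 at 13.2% to 19.6%.

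Of the other type IV collagen genes, named after their values were seen, COL4A5 had 1, 5 and 15 counts in batch B and 21 and 23 in batch A, and COL4A6 had 3, 2 and 7 in batch B and 4 and 4 in batch A. COL4A3 had 2 counts in all and COL4A4 had 0. COL4A1 and COL4A2 held 74.6% of the counts of the 6 chains over all libraries, at 88.2%, 89.4% and 70.3% in batch B and 70.5% and 65.0% in batch A. COL4A5, whose product is a chain of the glomerular basement membrane, did not pass the test between batches, with a log2 fold change of batch B over batch A of -1.19 (SE 0.42, edgeR adjusted p = 0.0868). Without batch B library 3, which held 15 of its 21 batch B counts, it was -2.15 (edgeR adjusted p = 0.0136), and the adjusted p ran from 0.0136 to 0.400 over the alternatives that gave one.

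NID1, which links laminin to type IV collagen, had 48.2, 45.2 and 49.6 CPM in batch B and 46.6 and 58.5 CPM in batch A. AGRN had 5.35, 19.1 and 24.8 CPM in batch B, from 2, 11 and 17 counts, and 11.6 and 8.72 CPM in batch A, from 8 and 7 counts. Its highest value was 4.64 times its lowest, the widest range of any member, and both extremes were in batch B. The lowest, at 2 counts, was under the limit of detection of 3 counts, with a 95% Poisson interval of 0.648 to 19.3 CPM. Perlecan (HSPG2) and nidogen-2 (NID2), named after their values were seen, averaged 12.8 and 10.1 CPM.

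SPARC had 23, 38 and 64 counts in batch B and 54 and 62 in batch A, or 61.5, 66.0 and 93.4 CPM in batch B and 78.6 and 77.2 CPM in batch A. Batch B held both its lowest and its highest library. FN1, the lowest member, had 3, 8 and 7 counts in batch B and 7 and 10 in batch A, or 8.03, 13.9 and 10.2 CPM in batch B and 10.2 and 12.5 CPM in batch A. COL5A1 had 3, 14 and 9 counts in batch B and 5 and 14 in batch A, or 8.03, 24.3 and 13.1 CPM in batch B and 7.28 and 17.4 CPM in batch A. The batches overlapped for all of these, and FN1 and COL5A1 in batch B library 1, at 3 counts each, were at the limit of detection. The other chains of collagen V were at or near 0, with 2 counts of COL5A2 and 0 of COL5A3 over all libraries.

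COL6A1 had 24, 40 and 34 counts in batch B and 24 and 31 in batch A, or 64.2, 69.5 and 49.6 CPM in batch B and 34.9 and 38.6 CPM in batch A. All batch B libraries were above both batch A libraries, at 61.1 ± 10.3 CPM in batch B and 36.8 ± 2.59 CPM in batch A (SD, n = 3 and 2). Collagen VI is assembled from alpha1, alpha2 and alpha3 chains. COL6A2, chosen like the partner chains above after its values were seen, had 1, 8 and 7 counts in batch B and 6 and 5 in batch A, a mean of 8.35 CPM over the libraries against 51.4 CPM for COL6A1. COL6A3, which encodes alpha3, had 0 counts in all 5 libraries, which allows up to 0.960 CPM pooled, so that COL6A1 was at least 51-fold higher, counting 3 pooled counts as the limit and without division by length.

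The comparison of batch B with batch A asks whether these genes are measured alike when the same line is profiled again. Spike-in RNAs had 13, 1 and 19 counts in batch B and 1785 and 2127 in batch A, and the part of this difference in the results was not tested. By edgeR's quasi-likelihood test over 9215 genes, of which 4.2% were called at an adjusted p under 0.05, 0 of the 9 tested members differed, against 2.15% of all tested genes called as higher and 2.05% as lower. FN1 did not pass the filter on low counts. At an unadjusted p under 0.05 there was 1 member, COL6A1, against 16.4% of all tested genes, and the DESeq2 Wald test and limma-voom also called 0 members, each with 1 at an unadjusted p under 0.05. DESeq2 gave no adjusted p for COL4A1, COL5A1, LAMB1 and AGRN, so that its 0 is of 5 members. COL6A1 was also the one member of 10 whose libraries did not overlap between batches, as was the case for 31.3% of all tested genes. The log2 fold change of COL6A1 was 0.73 (SE 0.26, 95% interval 0.22 to 1.23, edgeR adjusted p = 0.0860), over alternatives with an adjusted p of 0.0405 to 0.721. The call was made without batch B library 3 (0.91, edgeR adjusted p = 0.0405), and after thinning all libraries to the smallest the fold change was 0.47 (edgeR adjusted p = 0.533). The summed fibroblast markers given above were also higher in CPM in batch B. Their counts were 5, 8 and 19 in batch B and 4 and 10 in batch A. The summed HEK293 markers were higher in batch B too, at 914 to 982 CPM against 825 to 847 CPM in batch A. VIM was the largest part of that sum, at 517 ± 27.7 CPM in batch B and 428 ± 16.0 in batch A (SD, n = 3 and 2). Of 9 of these markers tested, 7 had a positive log2 fold change and 0 were called. NEFM was lower in batch B, at 37.8 ± 5.93 CPM against 57.0 ± 12.7 in batch A. The part of either sum in the COL6A1 value was not tested.

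**Figure D4:**
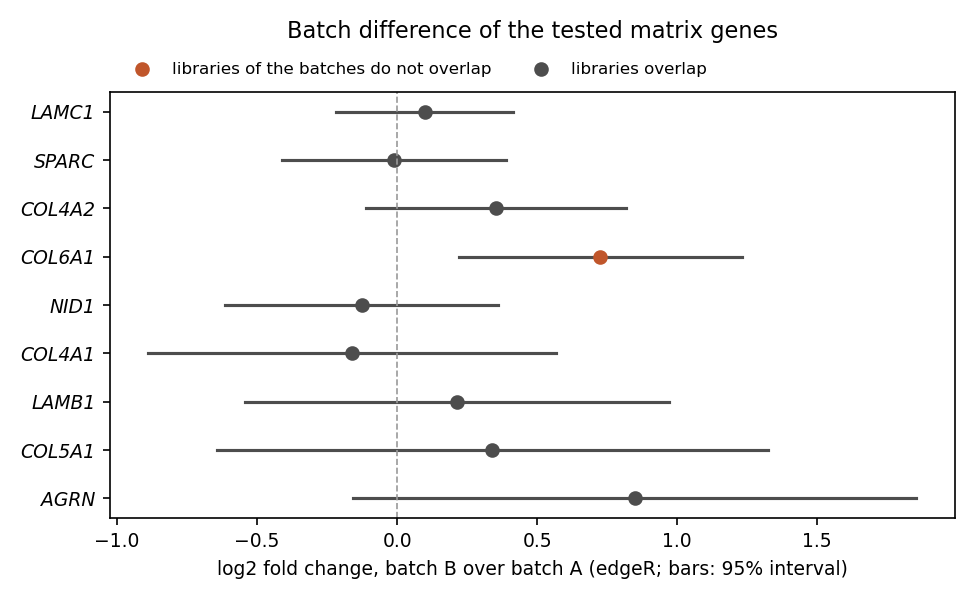
Log2 fold change of batch B over batch A (edgeR, horizontal axis) for the 9 tested members, ordered by level, with 95% intervals as bars; the coloured point marks the gene whose libraries do not overlap between batches. The interval of COL6A1, 0.22 to 1.23, lies above 0, those of the other 8 include 0, and no member passed the adjusted test.

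The other tested members had intervals that include 0, which bound the size of a batch difference without showing that there was none. The narrowest was that of LAMC1, with a log2 fold change of 0.10 and a 95% interval of -0.22 to 0.41 (edgeR adjusted p = 0.839). SPARC was at -0.011 (-0.41 to 0.39) and NID1 at -0.13 (-0.61 to 0.36), edgeR adjusted p = 0.988 and 0.872. COL4A2 was at 0.35 (-0.11 to 0.82) and COL4A1 at -0.16 (-0.89 to 0.57), edgeR adjusted p = 0.493 and 0.893. For COL4A2 the value was 0.55 when library 3 of batch B was left out and 0.22 when its library 2 was. Omitting library 2 of batch A gave 0.61, omitting its library 3 gave 0.11, and thinning gave 0.10. The intervals were widest for the members of fewest counts, AGRN at 0.85 (-0.16 to 1.85), COL5A1 at 0.34 (-0.64 to 1.32) and LAMB1 at 0.21 (-0.54 to 0.97), edgeR adjusted p = 0.424, 0.808 and 0.857. Over the 9 tested members the median log2 fold change was 0.21, and 6 were positive, beside a median of 0.0040 and 50.4% positive over all tested genes.

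Genes that build, bind and turn over matrix were followed in 6 further lists. Together 149 of 161 listed genes were analysed, 138 had a count and 61 were tested. Of these 3 rose and 0 fell, beside 4.2% of all tested genes called, 2.15% as higher and 2.05% as lower. Of 26 other basement membrane genes 10 were tested and 0 were called, with a median log2 fold change of 0.21. The most abundant were PXDN, the peroxidase that cross-links type IV collagen, at 42.2 ± 15.7 CPM in batch B and 62.4 ± 0.246 in batch A, and COL18A1, the source of endostatin, at 33.4 ± 1.49 CPM in batch B and 28.9 ± 0.340 in batch A (SD, n = 3 and 2). PXDN had a log2 fold change of -0.64 (edgeR adjusted p = 0.139), and without batch B library 1 it was called, at -0.89 (edgeR adjusted p = 0.0437). Without batch B library 3 it was -0.34 and after thinning -0.25 (edgeR adjusted p = 0.625 and 0.799), and the adjusted p ran from 0.0437 to 0.910 over all alternatives. Of 22 other collagen chains 2 were tested and 0 called, with a median of 0.11. COL2A1, the chain of cartilage collagen, led that list at 46.7 ± 7.35 CPM in batch B and 28.9 ± 12.0 in batch A, followed by COL27A1 at 14.8 ± 3.63 and 21.5 ± 0.475, while COL1A2, COL5A3, COL6A3, COL8A2 and COL9A1 had 0 counts.

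Of 30 glycoproteins and secreted proteoglycans 6 were tested, with a median log2 fold change of 0.40. Against 2.15% of all tested genes called higher, 1 of the 6 rose. This was LTBP4, which binds latent TGF-beta in the matrix, at 49.0 ± 9.50 CPM in batch B and 24.6 ± 3.93 in batch A, a log2 fold change of 0.98 (SE 0.31, edgeR adjusted p = 0.0379). FBLN1, which encodes fibulin-1, had the highest level of the list, at 94.2 ± 22.5 CPM in batch B and 78.6 ± 10.3 in batch A, and the proteoglycan gene VCAN was at 54.2 ± 15.8 and 38.0 ± 4.35. Of 29 receptors and cell surface proteoglycans 16 were tested, with a median of 0.32, and 1 rose, the glypican gene GPC3, at 65.9 ± 5.54 CPM in batch B and 35.2 ± 5.79 in batch A (log2 fold change 0.91, SE 0.26, edgeR adjusted p = 0.0158). The syndecan gene SDC2 was the most abundant of them at 83.3 ± 4.44 CPM in batch B and 79.5 ± 4.97 in batch A.

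Of 30 genes of collagen processing, all with a count, 19 were tested, with a median log2 fold change of 0.12. Against 2.15% of all tested genes called higher, 1 of the 19 rose. This was PLOD2, a lysyl hydroxylase that acts on collagen telopeptides, at 105 ± 14.0 CPM in batch B and 66.9 ± 4.01 in batch A (log2 fold change 0.69, SE 0.19, edgeR adjusted p = 0.0160). PPIB, a prolyl isomerase of the endoplasmic reticulum, and P4HB, the beta subunit of prolyl hydroxylase, were the most abundant, at 297 ± 45.3 and 257 ± 20.0 CPM in batch B and 290 ± 43.9 and 322 ± 19.5 CPM in batch A. Of 24 proteases, inhibitors and inducers 8 were tested and 0 called, with a median of 0.21. BSG, which encodes basigin, was at 536 ± 31.7 CPM in batch B and 459 ± 23.4 in batch A, and the inhibitor TIMP1 at 192 ± 5.12 and 172 ± 18.9. The calls of GPC3, LTBP4 and PLOD2 were lost in the DESeq2 Wald test (adjusted p = 0.464, 0.552 and 0.514). Without batch A library 3 all 3 were lost (edgeR adjusted p = 0.273, 0.130 and 0.112), and without batch A library 2 those of LTBP4 and PLOD2 (0.266 and 0.139). Without batch B library 1 the calls of GPC3 and LTBP4 were lost (edgeR adjusted p = 0.0510 and 0.106), and without batch B library 3 those of LTBP4 and PLOD2 (0.139 and 0.153). With every detected gene tested, LTBP4 and PLOD2 missed the threshold in edgeR (adjusted p = 0.0932 and 0.0600), as they did after thinning (0.129 and 0.155), and LTBP4 missed it in limma-voom (0.0503). Over all alternatives the adjusted p ran from 0.0121 to 0.464 for GPC3, 0.0241 to 0.552 for LTBP4 and 0.0102 to 0.514 for PLOD2.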

How the data were processed

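The deposited table holds whole-number counts per gene, 1 column per library, with no normalization by the authors. The tools named by the submitters' processing notes are STAR 2.4.0a and cutadapt 1.2.1, and the builds are GRCh37 and hg19. The sources used here do not give the counter, the annotation, the use of strand or the collapsing of molecular identifiers. Intervals and limits therefore cover only the counting error of independent counts. They are too narrow if copies of 1 molecule were counted separately, which is not known. Reads of overlapping genes may be shared. The prefix that a column shares with the sample titles gave its batch.

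CPM was computed from gene counts without the 52 spike-in rows. Batches were compared with edgeR 4.0.16 (TMM, filterByExpr, quasi-likelihood F test, Benjamini-Hochberg over 9215 genes), tested on simulated data. The spread was pooled over genes (infinite prior degrees of freedom). Alternatives used limma 3.58.1, DESeq2 1.42.0, other scalings and filters, thinning by 1 seeded draw, and each library left out. Standard errors were derived from the log2 fold change and the F statistic. Transcript lengths are from GENCODE 29 and promoters from RefSeq, both on GRCh38, matched by symbol. The members and lists were chosen with earlier results of these data known. Named genes are the members, and of each list the called genes and the 2 of highest CPM. No member has a row of an antisense gene or numbered pseudogene under its own symbol. Some genes are not reported here.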

Additional observations from a re-analysis of the deposited data

How the results depend on the processing

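No paired analysis was possible because the batch A columns end in 2 and 3, while the labels number its replicates 1 and 2, so the columns carry no replicate numbers of the labels. The labels also name no culture or lysate shared between batches, so equal replicate numbers alone would not show that libraries were pairs. The count of called members was 0 in all alternatives but the one without batch B library 3, where it was 1 (range 0 to 1 over libraries left out). Of the 9 members tested, 5 were tested with a mean count of at least 20, 6 after thinning and 7 without batch B library 2, and 5 had an adjusted p in DESeq2. The count of called genes, 387, was 37 with the DESeq2 Wald test, 205 after thinning and 138 to 333 with a library left out. The 3 calls in the other matrix lists were 0 with DESeq2, 1 without a filter on low counts, 1 after thinning and 0 to 3 with a library left out. The cause of these changes was not tested, except that thinning and leaving out libraries lower the counts. Signs of small fold changes turned: LAMC1 to -0.11 and NID1 to 0.037 after thinning, and SPARC to 0.0044 with a mean count of at least 20. With a library left out the ranges were -0.43 to 0.13 for COL4A1, -0.090 to 1.10 for COL5A1, -0.0036 to 0.53 for LAMB1, -0.25 to 0.038 for NID1, -0.23 to 0.085 for SPARC, -0.026 to 0.15 for CDH2 and -0.032 to 0.23 for PPIB. When mitochondrially encoded genes were left out of the total, the summed share of members rose in both batches. It went from 0.0458% to 0.0480% in batch B and from 0.0416% to 0.0430% in batch A. Ordered per kilobase, 2 members, NID1 and FN1, kept their rank, and each of the others changed places with its neighbour. SPARC came first and LAMC1 second, COL6A1 passed COL4A2, LAMB1 passed COL4A1 and AGRN passed COL5A1. Of these neighbours only LAMC1 and SPARC differed beyond their spread in the main order. Depth limits the members of few counts: 11 of 50 values were under 10 counts.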
